A study of Mus musculus with 17 samples.

Results

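The genes described here are 10 players of the cadherin switch: the cadherins Cdh1, Cdh2 and Cdh3, the intermediate filament gene Vim, the transcription factors Zeb1, Zeb2, Snai1 and Snai2, and the epithelial regulators Grhl2 and Esrp1. They are 10 of 22367 protein-coding genes of the mm9 annotation, and a loop was assigned to a gene when an anchor lay within 5 kb of a transcription start site (TSS) of that gene. The 10 genes held 606 of the 1211657 loops, with 902 read pairs in bulk and 119 in double positive libraries. Of these loops, 441 rested on 1 read pair, and 2 loops joined the promoters of Cdh1 and Cdh3.

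In epithelia, Cdh1 (E-cadherin) and Cdh3 (P-cadherin) hold neighbouring cells together at adherens junctions, while Cdh2 (N-cadherin) and the filament protein vimentin are typical of neural and mesenchymal cells. During epithelial-mesenchymal transition (EMT), factors of the ZEB and SNAIL families repress Cdh1 through E-boxes in its promoter, and Grhl2 and the splicing factor Esrp1 act on the epithelial side. In embryoid bodies (EBs), the same switch accompanies gastrulation-like steps, and neural cells characteristically exchange E-cadherin for N-cadherin.

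H3K27ac HiChIP measures contacts between chromatin regions of which at least 1 end carries H3K27ac, a mark of active promoters and enhancers, and each value is a number of read pairs joining a pair of anchors. All libraries came from EBs that mouse embryonic stem cells formed in hanging drops and that then received 0.5 µM retinoic acid (RA) for 4 days. The 12 bulk libraries were made from unsorted cells, and the 5 other libraries, which the labels call cluster2, are taken here as the EpCAM/CD38 double positive cells that the study isolated in 5 independent runs of fluorescence-activated sorting. The bulk cells include double positive cells, and nothing says that the bulk libraries came from separate cultures, so their spread may be technical.

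Between 65178 and 241202 read pairs per bulk library lay in loops, against 50508 to 118179 per double positive library. Double positive loops used 15082 anchors, of which 71.3% lay within 5 kb of a coding start site, and bulk loops used 216073 anchors, of which 14.6% did. The TMM scaling factors ran from 0.556 to 0.789 in bulk and from 2.41 to 2.635 in double positive libraries, so directions depend on the scaling. With TMM the median log2 change of all 13712 genes tested, double positive over bulk, was -0.43, and 2737 genes were higher and 5604 lower. With library size alone it was 1.38, a shift of 1.82, and 7976 genes were higher and 3311 lower. Of the sorted markers, neither Epcam (24.1 ± 16.1 (SD, n = 5) against 12.1 ± 10.7 (n = 12) in CPM, read pairs scaled by the TMM library size; adjusted p = 0.148, edgeR) nor Cd38 (46.3 ± 24.1 against 31.8 ± 27.6 CPM; adjusted p = 0.262) passed the test. These calls depended on the setting: on loops whose anchors both groups used, Cd38 was higher (log2 change 1.78, adjusted p = 0.00765) and Epcam was not called (0.27, adjusted p = 0.741), and with library size alone both were higher (2.38 and 2.75, adjusted p = 3.81e-06 and 2.59e-05). Of the 4 endoderm markers Gata4 and Foxa2 were higher and Gata6 and Sox17 were not called, although Sox17 was higher on shared anchors (3.99, adjusted p = 0.00067), and of the 4 neural markers tested Pax6, Neurod1 and Lhx1 were lower and Tubb3 was not called. Of the pluripotency markers Pou5f1 was higher (adjusted p = 0.0357; on shared anchors 0.12, not called) and Nanog was not tested. Of the blood and endothelial markers Pecam1, with no double positive promoter anchor and no read pair there, was called lower, Tal1 was not called and Kdr was not tested.

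The promoters of Cdh1 and Cdh3, on the epithelial side, and of Vim and Zeb2, on the mesenchymal side, are shown because the E-box through which ZEB and SNAIL factors act distinguishes them. Each is the 250 bases before the first coding start site in the mm9 reference (NCBIM37), 5′ to 3′ on the gene's strand, and capitals mark CACCTG read on either strand. Cdh1 lies on the plus strand at chr8:109127001-109127250, Cdh3 on the plus strand at chr8:109034541-109034790, Vim on the plus strand at chr2:13495304-13495553 and Zeb2 on the minus strand at chr2:44972916-44973165.
Cdh1: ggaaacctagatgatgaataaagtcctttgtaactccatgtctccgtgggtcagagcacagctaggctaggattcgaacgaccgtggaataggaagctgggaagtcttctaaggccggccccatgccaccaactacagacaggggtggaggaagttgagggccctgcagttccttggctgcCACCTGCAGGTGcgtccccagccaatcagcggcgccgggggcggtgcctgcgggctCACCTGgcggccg
Cdh3: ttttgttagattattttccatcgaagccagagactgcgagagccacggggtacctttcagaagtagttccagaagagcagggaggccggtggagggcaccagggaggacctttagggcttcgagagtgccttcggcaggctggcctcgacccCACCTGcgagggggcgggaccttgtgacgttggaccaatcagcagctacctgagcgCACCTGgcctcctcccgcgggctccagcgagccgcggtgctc
Vim: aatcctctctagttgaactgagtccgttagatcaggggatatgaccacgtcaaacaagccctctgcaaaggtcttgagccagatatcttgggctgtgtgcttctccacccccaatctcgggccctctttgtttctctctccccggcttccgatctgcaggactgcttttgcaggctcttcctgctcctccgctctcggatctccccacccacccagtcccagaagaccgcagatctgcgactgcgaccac
Zeb2: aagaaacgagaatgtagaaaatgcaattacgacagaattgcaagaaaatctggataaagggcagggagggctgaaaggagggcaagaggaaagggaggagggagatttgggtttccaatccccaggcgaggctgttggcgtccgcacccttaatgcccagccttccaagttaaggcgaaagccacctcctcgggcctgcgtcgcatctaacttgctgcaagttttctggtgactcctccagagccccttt

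The Cdh1 window held 3 CACCTG matches, starting 69, 63 and 13 bases before the start site, the first 2 of them back to back. The Cdh3 window held 2, at 98 and 42 bases, and those of Esrp1 and Snai1 held 1 each, while Vim, Zeb2 and Snai2 held none. Thus 4 of the 7 promoters searched had a match, and 16.9% of all 22354 promoters of this length did. Every CACCTG also matches the wider E-box core CANNTG, which 5 of the 7 and 63.4% of all promoters held. The Grainyhead-like core AACCNGTT, read on either strand, was in none of the 7 and in 1.82% of all promoters. A match describes letters in this window and not a bound site. The other promoters were not searched here.

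Read pairs per gene were compared between the groups to ask which of these promoters lost or kept contacts in the sorted cells. Of the 10 genes 8 had enough read pairs for the test, and 6 of these, Cdh2, Cdh3, Vim, Zeb1, Zeb2 and Snai1, were lower in double positive cells (edgeR's quasi-likelihood test, adjusted p under 0.05). Cdh1 and Grhl2 were not called, and no gene was higher. Of all genes tested 40.9% were lower and 20% higher. The promoter anchor set itself bears on these counts: 4 of the 10 genes, Cdh3, Snai1, Snai2 and Esrp1, had no promoter anchor in the double positive set, and every one of the 2771 tested genes without such an anchor was called lower. For these genes the files do not say whether an anchor was never called or had no read pair, so no fold is given. Among the 10941 tested genes with a double positive promoter anchor, 25.9% were lower and 25% higher, and among the 6 such genes here, 4 were lower and 0 higher. The median log2 change of these 6 was -1.42, against 0.0011 over all genes of that kind. A contact in fewer cells and a weaker contact per cell cannot be told apart in these libraries.

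**Figure D1:**
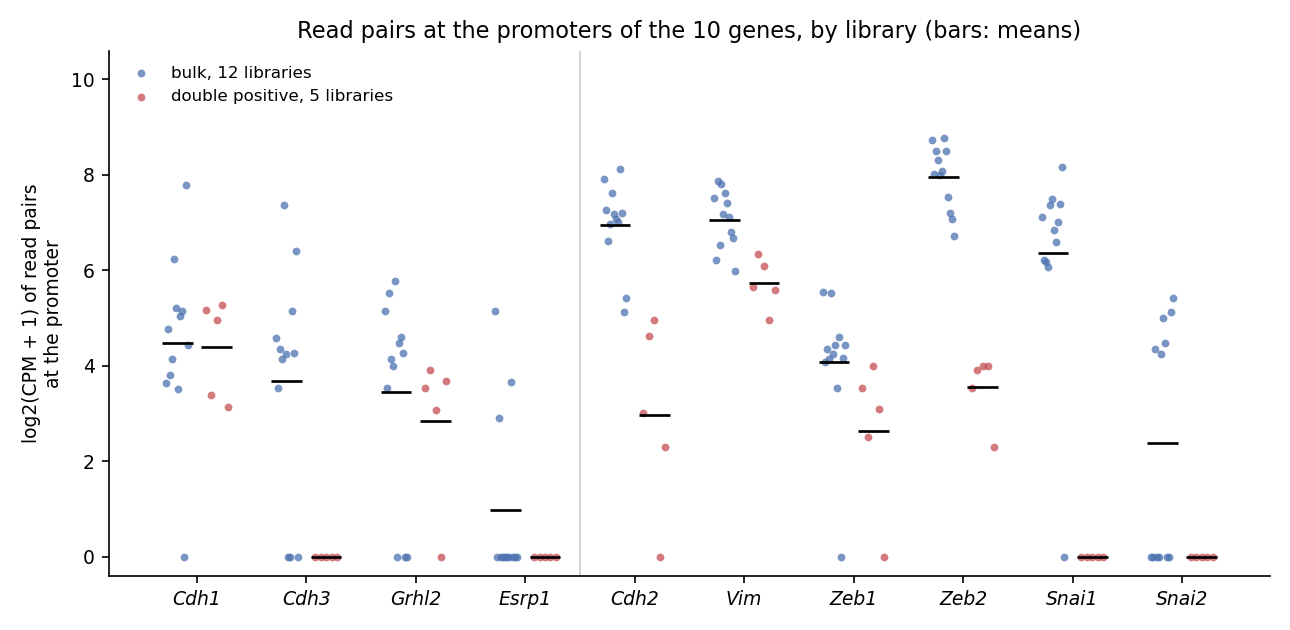
Read pairs at each promoter as log2(CPM + 1), with 1 point per library, blue for the 12 bulk and red for the 5 double positive libraries, and bars for the group means; the 4 epithelial genes stand left of the line. With this TMM scaling all double positive points of Zeb2 and Cdh2 lie below all bulk points, though by library size alone the groups overlap for Cdh2. The share of all genes that separate in this way was not counted. The points of Cdh1 lie within the bulk range, and 4 genes have no double positive read pair.

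Cdh1 was not called different in the sorted cells, while its neighbour Cdh3 had no read pair there. The 5 double positive libraries held 10, 2, 4, 5 and 2 Cdh1 read pairs, and the bulk libraries between 0 and 13 with a median of 2.0. The ranges overlap, and 1 bulk library stands apart: replicate 11 held 13 of the 38 bulk read pairs, spread over 12 loops. Cdh1 averaged 23.9 ± 14.3 CPM (SD, n = 5) against 41.2 ± 59.1 (n = 12), a log2 change of -0.64 ± 0.57 (SE) with an adjusted p of 0.335. Without that bulk library the change was -0.07. With library size alone it was 1.18 (adjusted p = 0.0497), a shift close to that of the median gene. Relative to the median gene, Cdh1 was at -0.21 under either scaling. On loops whose anchors both groups used the change was 2.04 (adjusted p = 0.0268), which was 1.70 above the median gene. That setting keeps an anchor only where double positive libraries used it. It kept 2 of the 38 bulk Cdh1 read pairs (5.26%), against 12.3% of all bulk read pairs, so this value rests on very few bulk read pairs.

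The Cdh1 anchors differed in which group used them. Of the 3 anchors in its window the middle one, chr8:109126257-109129073, covers the start site and held all 23 double positive and 19 bulk read pairs. Its log2 change was 0.56 ± 0.55 (adjusted p = 0.339). This anchor was higher with library size alone (2.17, adjusted p = 0.000487) and in libraries thinned to 50508 read pairs (1.60, adjusted p = 0.0403). It was also higher on shared anchors (2.31, adjusted p = 0.0065), where 2 bulk Cdh1 read pairs stayed. The flanking anchors, with middles at -3395 and 5993 bp from the start site, held 7 and 16 bulk read pairs and were not in the double positive set.

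Most Cdh1 read pairs of the sorted cells spanned long distances. Their median span, weighted by read pairs, was 637699 bp, against 37646.5 bp in bulk, and 19 of 23 read pairs spanned over 100 kb, against 11 of 38. Over all loops the share over 100 kb was 44.7% in double positive and 54.9% in bulk libraries. Of the double positive read pairs 60.9% joined the promoter of another gene, 34.8% an intergenic anchor and none an intron, whereas 28.9% of the bulk read pairs joined other promoters and 36.8% introns. Over all genes, each counted with its own loops, other promoters took 81.6% of read pairs in double positive libraries and 39.9% in bulk, and introns 3.62% and 17.8%, so the promoter share of Cdh1 in the sorted cells lay below that of all genes. The strongest double positive loop joined an intergenic anchor at chr8:109111807-109114425, between Cdh3 and Cdh1, over 14549 bp with 4 read pairs in 2 libraries and none in bulk. Loops with 3 read pairs each reached the Nutf2/Thap11 promoters over 743342 bp and an intergenic anchor near Psmd7 over 971170 bp, both absent from bulk. A loop with 1 double positive read pair joined Cdh1 to the promoter of Esrp2, a splicing factor of epithelial cells, 467119 bp away. In bulk the strongest loops, 3 with 3 read pairs each, ended within Cdh1, the longest of them in an intron at chr8:109154907-109158275. Only 1 of the 44 Cdh1 loops, with Zfp90, was seen in both groups, beside 21 of the 606 loops of all genes described here. Bulk thus also held 1 of the 16 double positive Cdh1 loops, against 21 of the 44 double positive loops of these genes together. The share over all loops was not counted. The part that sparse counts and the differing anchor sets play in this overlap was not tested. Counts this small give no order among loops.

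Cdh3, the P-cadherin gene next to Cdh1, held 30 bulk read pairs over 27 loops and none in the double positive libraries. Its bulk libraries held 0 to 11 read pairs with a median of 2.0, and replicate 5 held 11 of the 30. The gene was called lower (adjusted p = 0.000227; without replicate 5, 0.000425). Its longest top loop, with 2 bulk read pairs, reached the Prmt7/Slc7a6os promoters over 298831 bp.

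Grhl2, which activates epithelial genes including cadherins, held 3, 3, 1, 0 and 3 double positive read pairs and 0 to 7 per bulk library with a median of 2.0. The ranges overlap, and at 8.77 ± 5.46 against 19.9 ± 17.4 CPM the log2 change of -1.03 ± 0.61 was not called (adjusted p = 0.147). It was called lower with a TSS window of 10 kb (-1.58, adjusted p = 0.0132). Its strongest double positive loop joined Ywhaz, a 14-3-3 protein gene, over 439618 bp with 4 read pairs in 3 libraries and none in bulk. The strongest bulk loop, with 3 read pairs, joined an internal start site to an intergenic anchor over 200204 bp. Esrp1, which directs epithelial splicing, held 5 bulk read pairs in 3 libraries over 4 loops, 2 of them on a loop with Dpy19l4, and was too sparse to test.

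Cdh2 fell in the sorted cells. The double positive libraries held 2, 5, 4, 0 and 1 read pairs, and the bulk libraries 2 to 29 with a median of 13.0. After TMM scaling every double positive library lay below every bulk library, at 12.9 ± 13.1 against 143 ± 70.9 CPM. By library size alone the groups overlapped. Double positive replicates 2 and 3 then stood at 58.2 and 78.4, above bulk replicates 11 and 12 at 23.1 and 30.7. The share of all genes that separate in this way was not counted. The log2 change was -3.50 ± 0.45 (adjusted p = 3.67e-08), and Cdh2 was lower in all 29 other settings run, from -3.88 to -1.68. Of its 3 anchors, that at the first start site, chr18:16964719-16968982, fell by 3.79 on the log2 scale (adjusted p = 1.05e-07) and that near the internal start site, chr18:16830385-16834718, fell by 2.75 (adjusted p = 1.05e-05). Of all 43452 anchors tested 75.5% were lower.

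The few Cdh2 read pairs of the sorted cells lay inside the gene. All 12 double positive read pairs, over 6 loops that bulk also held, ended in an intron or exon of Cdh2, and 11 of them spanned 100 kb or less. Anchors near both start sites joined the intronic anchor chr18:16897680-16901094, over 66836 bp with 4 double positive and 2 bulk read pairs and over 67464 bp with 3 and 2. In bulk 43.8% of the 162 read pairs ended in intergenic anchors and 51.9% spanned over 100 kb. These intergenic anchors were not in the double positive set. Over all genes intergenic anchors took 25.8% of bulk and 8.91% of double positive read pairs, and introns 17.8% and 3.62%. The part that the differing anchor sets play in the Cdh2 shares was not tested. The strongest bulk loop, with 8 read pairs in 6 libraries, joined the first start site to an intergenic anchor upstream over 7874 bp.

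**Figure D2:**
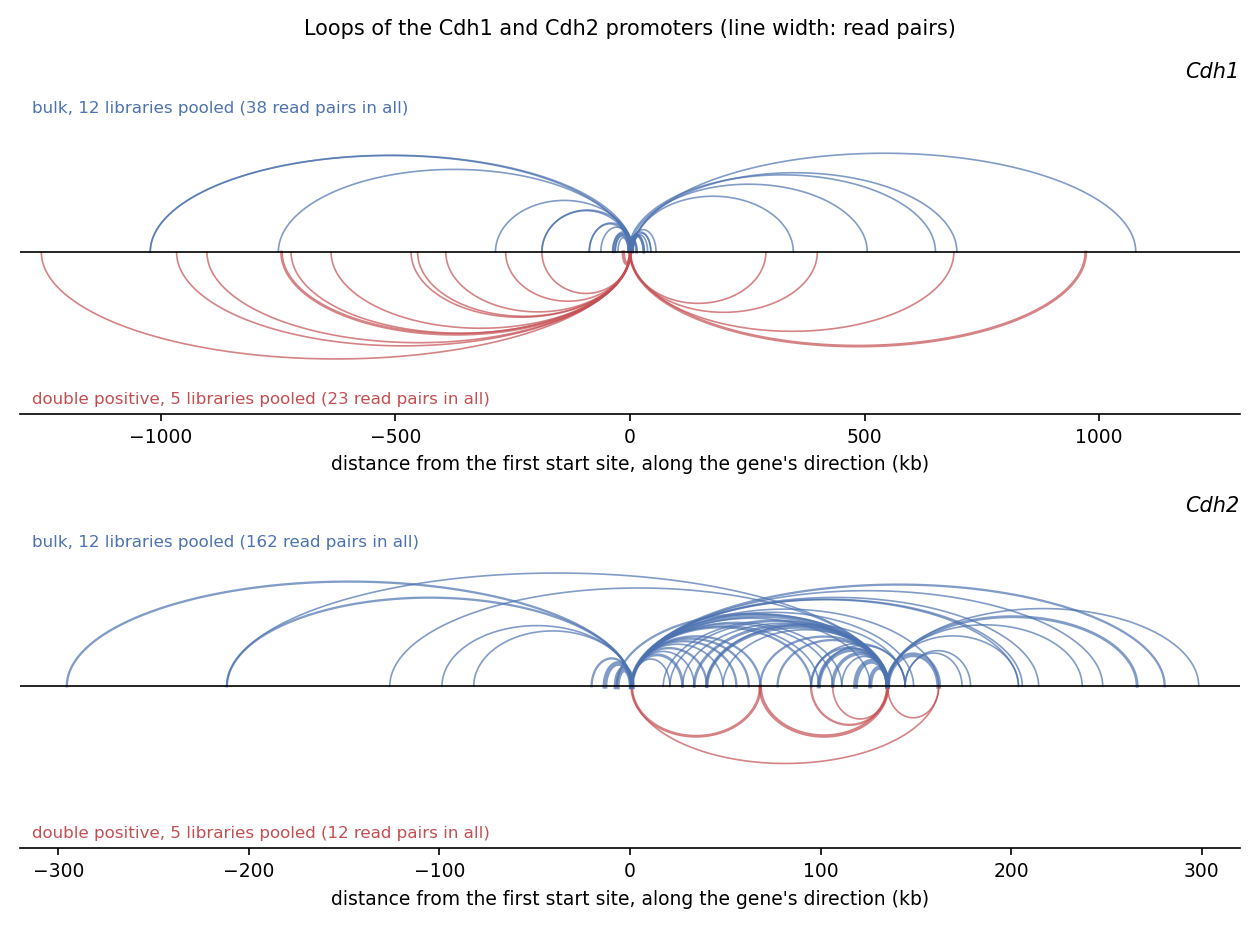
Loops of Cdh1 and Cdh2 by distance from the first start site in kb along the gene, bulk above and double positive below the line, with line width growing with the read pairs of the pooled libraries; loops leaving the plotted window are not drawn. Double positive loops of Cdh1 reach over 100 kb to both sides, while those of Cdh2 stay within the gene.

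**Figure D3:**
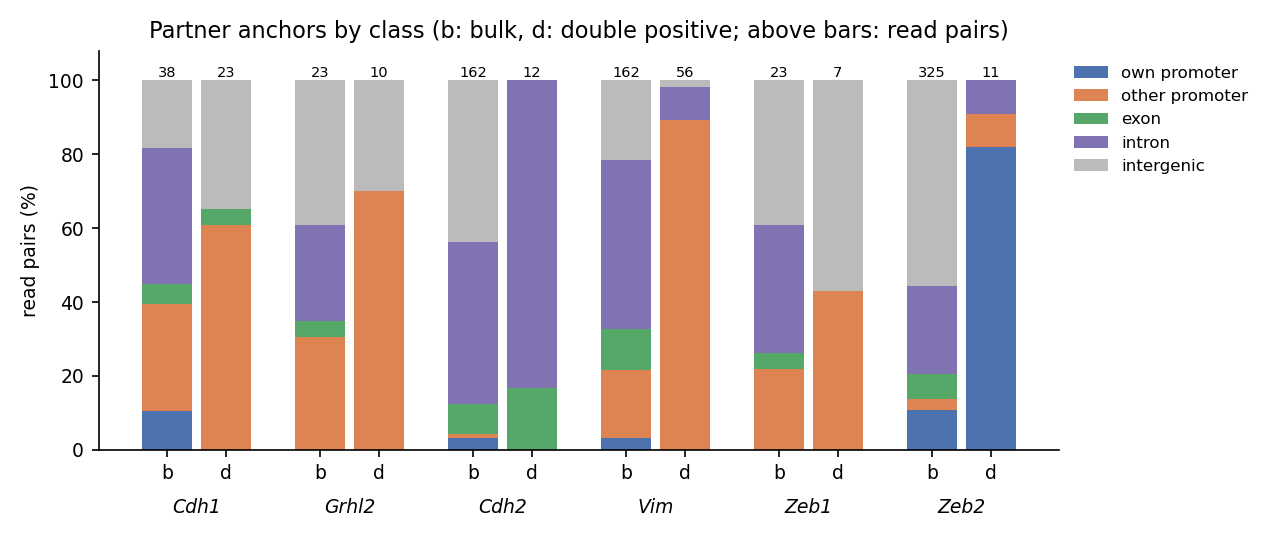
Share of each gene's read pairs in percent by the class of the partner anchor, for bulk (b) and double positive (d) libraries pooled, with the number of read pairs above each bar. Other promoters take 60.9% of the double positive read pairs of Cdh1 and 89.3% of those of Vim, and the gene's own promoters take 81.8% of those of Zeb2.

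Vim had fewer scaled read pairs in the sorted cells. Its loop with Cubn, which encodes the endocytic receptor cubilin of the visceral endoderm, held 28 double positive and 3 bulk read pairs. The double positive libraries held 14, 17, 9, 4 and 12 Vim read pairs, and the bulk libraries 3 to 36 with a median of 13.0. At 54.7 ± 19.3 against 144 ± 57.7 CPM, all 5 double positive libraries lay below the bulk median and 3 below every bulk library. By library size alone the ranges overlapped, at 79.2 to 197.8 in double positive and 46.05 to 177.2 in bulk libraries. The share of all genes with such a pattern was not counted. With TMM the log2 change was -1.39 ± 0.30 (adjusted p = 0.000143). The call was lost on shared anchors (-0.44, adjusted p = 0.367) and with library size alone (0.47, adjusted p = 0.154). Relative to the median gene the change was -0.96 with TMM, -0.91 with library size alone and -0.78 on shared anchors.

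The Vim loop with Cubn joined chr2:13493852-13497449, which covers the Vim start site, to chr2:13407944-13420273, which covers that of Cubn, over 81542 bp. It held 9, 8, 3, 2 and 6 read pairs in the double positive libraries, and 1 read pair in each of 3 bulk libraries and 0 in the other 9. Scaled, 4 double positive libraries lay above every bulk library, and the loop held 28 of the 56 double positive Vim read pairs. The share of all loops that separate in this way was not counted. At 21.0 ± 7.70 (SD, n = 5) against 3.35 ± 6.11 CPM (n = 12) the log2 change was 2.49 ± 0.68 (adjusted p = 0.000742). Of the 5369 loops tested 38.1% were higher and 22.4% lower, and the median log2 change was 0.78. The loop was higher in all 13 other settings that tested it, from 2.25 to 4.56, with adjusted p up to 0.0445 under the replicate block. With 3 bulk read pairs it reached the 20 needed for the test only through its 28 double positive read pairs. A loop this rare in bulk is tested only where it is high in double positive libraries. The call and its repeats in the other settings are therefore partly fixed by this choice of loops. Those settings reuse the same libraries, so the repeats are no separate support.

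The other Vim loop tested was not called. It joined Trdmt1, a tRNA methyltransferase gene next to Vim, over 29386 bp and held 4, 2, 2, 0 and 3 double positive read pairs and 10 in 6 bulk libraries. Its log2 change of -0.24 ± 0.60 was not called (adjusted p = 0.742), and with library size alone it was 1.92 (adjusted p = 0.00373), which relative to the median loop is -1.02 and -1.07. The loop with Rsu1 over 302631 bp held 7 double positive and 5 bulk read pairs and was too sparse to test. Altogether 89.3% of the 56 double positive Vim read pairs joined other promoters, against 18.5% of the 162 bulk read pairs, of which 45.7% ended in introns. Over all genes the shares at other promoters were 81.6% and 39.9%, and the part that the promoter-rich double positive anchor set plays in the Vim shares was not tested. The median span was 81542 bp in double positive and 201935 bp in bulk libraries.

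Zeb2, the ZEB factor of neural crest and neural progenitors, had the most read pairs of the 10 genes in bulk and, of the 8 tested, the smallest p. The double positive libraries held 3, 3, 2, 2 and 1 read pairs, and the bulk libraries 5 to 56 with a median of 25.5. Every scaled double positive library lay below every bulk library, at 11.7 ± 4.73 against 271 ± 112 CPM. By library size alone the highest double positive library (replicate 4, 39.6) also lay below the lowest bulk library (replicate 12, 76.75). The share of all genes that separate in this way was not counted. The log2 change was -4.57 ± 0.38 (adjusted p = 1.96e-12), and in the 29 other settings it ran from -6.36 to -2.76. All 4 promoter anchors of Zeb2 were tested and called lower, as were 75.5% of all anchors tested. The 2 in the double positive set had log2 changes of -3.38 and -3.18, and the other 2, with 37 and 45 bulk read pairs, were not in that set.

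Most Zeb2 read pairs of the sorted cells were local. Of the 11 double positive read pairs, 9 lay on a loop of 6888 bp between anchors at 2 Zeb2 start sites, chr2:44963533-44966980 and chr2:44970553-44973735, and the others reached an intron of Zeb2 and the promoter of Gtdc1. In bulk 205 loops held 325 read pairs, 65.2% of the read pairs spanned over 100 kb, and 55.7% ended in intergenic anchors. Over all genes intergenic anchors took 25.8% of bulk and 8.91% of double positive read pairs, and own promoters 2.55% and 1.66%. The part that the differing anchor sets play in the Zeb2 shares was not tested. The local loop held 1, 3, 2, 2 and 1 double positive read pairs and 20 in 8 bulk libraries, at 8.20 ± 4.78 against 18.6 ± 16.7 CPM. It was called lower (log2 change -1.39 ± 0.58, adjusted p = 0.0301). The call was kept in 3 of 11 other settings and was lost without double positive replicate 1 (adjusted p = 0.12) and without replicate 5 (adjusted p = 0.0929).

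**Figure D4:**
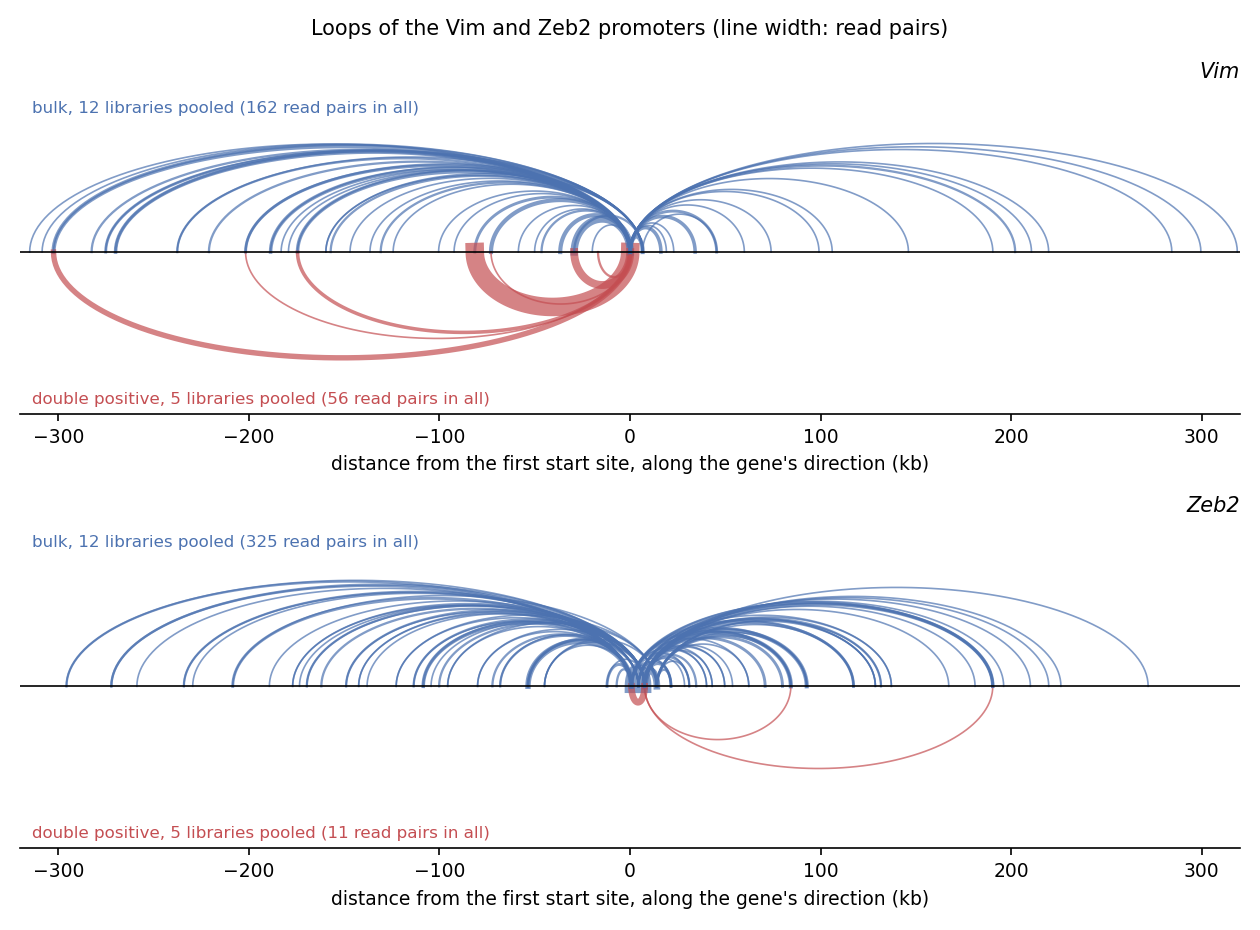
Loops of Vim and Zeb2 by distance from the first start site in kb along the gene, bulk above and double positive below the line, with line width growing with the read pairs of the pooled libraries; loops leaving the plotted window are not drawn. The widest double positive loop of Vim, with 28 read pairs, ends at Cubn, and that of Zeb2, with 9, joins its own start sites.

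Zeb1, the paralogue of Zeb2, was sparse in both groups. Its single anchor at chr18:5590395-5594211 was in the double positive set and held 3, 1, 2, 1 and 0 double positive read pairs, against 0 to 4 per bulk library with a median of 2.0. The ranges overlap, with a log2 change of -1.46 ± 0.60 (adjusted p = 0.0359). The gene's call held in 17 of 26 other settings and was lost with DESeq2, for example (adjusted p = 0.0615), and without bulk replicate 1 (0.0668) or 5 (0.0594) or double positive replicate 2 (0.0773), 4 (0.0504) or 5 (0.121). As an anchor it was not called (-1.28 ± 0.63, adjusted p = 0.055). All 7 double positive read pairs spanned over 100 kb, and 2 of them joined the Zfp438 promoter, with which bulk held 5. The longest of its top double positive loops, with 2 read pairs and none in bulk, reached an intergenic anchor near Kif5b over 683032 bp.

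Snai1, the SNAIL factor that represses Cdh1 at gastrulation, held 123 bulk read pairs over 71 loops and none in the double positive libraries, where neither of its anchors was used. The bulk libraries held 0 to 17 with a median of 11, and only replicate 12 held none. The gene was called lower (adjusted p = 2.64e-09). Snai1 lies at chr2:167363695-167368314, in the distal part of chromosome 2 where bulk read pairs are in excess: the 378 tested genes from 150 Mb on held a median of 102.5 bulk read pairs, against 50 for the 13334 others, and 83.9% of them were lower, against 39.6%. All 120 genes of that segment without a double positive promoter anchor were lower, as were all 2651 elsewhere. The part of this segment in the Snai1 result was not tested. The strongest bulk loop of Snai1 held 18 read pairs in 8 libraries and joined the start site to an intergenic anchor at chr2:167352958-167358523 over 7766 bp. Snai2, known as Slug, held 13 bulk read pairs in 6 libraries, each on a loop of its own and each over 100 kb, and was too sparse to test.

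**Figure D5:**
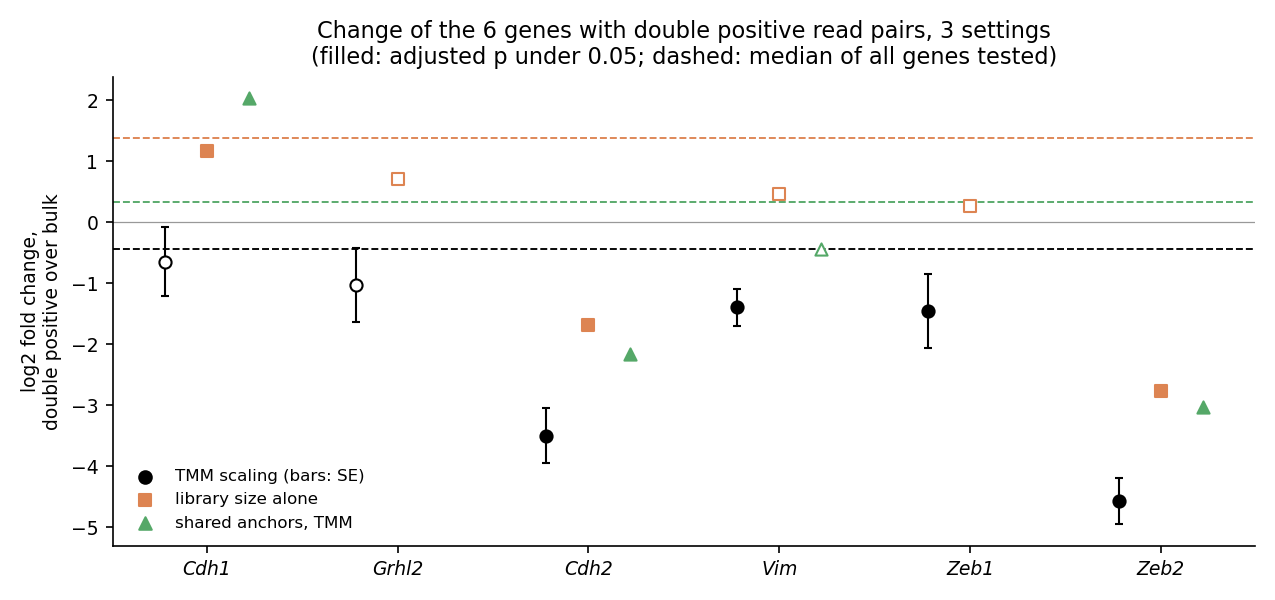
Log2 fold change of the 6 genes with double positive read pairs, double positive over bulk, under TMM scaling (circles, bars are SE), with library size alone (squares) and on shared anchors (triangles); filled symbols passed adjusted p under 0.05 and dashed lines mark the median of all genes tested under each setting. Cdh2 and Zeb2 are below zero and below the median gene in all 3 settings, and Cdh1 is above zero in the last 2 but above the median gene only on shared anchors. On shared anchors Cdh1 kept 2 bulk read pairs.

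The wider families were read from lists of related genes, whose counts stand beside 40.9% lower and 20% higher over all genes tested, and 25.9% and 25% among those with a double positive promoter anchor. Of the 16 other classical and type II cadherins 6 were tested, 5 were lower and 1 was higher. Of the 3 with a double positive promoter anchor 2 were lower. Cdh24 was higher (61.0 ± 7.92 against 33.4 ± 11.1 CPM, log2 change 0.80 ± 0.32, adjusted p = 0.0277), and Cdh22 and Cdh4 were lower (-5.12 and -3.80), both in the distal segment of chromosome 2. Of the 7 catenins, which tie cadherins to actin, 5 were tested. Ctnnd1 (p120-catenin) was higher by 1.21 ± 0.25 on the log2 scale (adjusted p = 9.3e-05) and Jup (plakoglobin) by 1.31 ± 0.30 (adjusted p = 0.000235). Ctnnb1 and Ctnna1 were called lower with no read pair and no anchor in the double positive set. Of 5 desmosome genes tested, out of 9, Dsg2 (desmoglein 2) was higher (1.15 ± 0.49, adjusted p = 0.0391) and Pkp4, with no double positive anchor, was lower.

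Among other epithelial transcription and splicing factors, 10 of 11 were tested, 2 were higher and 4 were lower, which is near the shares over all genes. All 4 lower genes, Rbm47 and Elf5 with the smallest p, had no double positive anchor. Esrp2, the paralogue of Esrp1, rose by 2.26 ± 0.34 on the log2 scale (254 ± 41.2 against 57.5 ± 67.4 CPM, adjusted p = 8.36e-07), and Klf4 by 1.36 ± 0.44 (adjusted p = 0.00769). Of the 9 other EMT-promoting factors 6 were tested, none was higher, and Tcf4, an E-protein, fell by 2.68 (adjusted p = 8.31e-08), while Prrx1 was called lower without a double positive anchor. In the TGF-beta list 10 of 11 were tested. Tgfb1, a ligand, was higher (0.97 ± 0.31, adjusted p = 0.00723), and 7 were lower, 6 of them without a double positive anchor, Tgfb2 and Smad2 with the smallest p. Of 10 mesenchymal filament and matrix genes 7 were tested, 3 were higher and 3 lower. Sparc, a matrix glycoprotein, rose by 1.91 ± 0.23 (adjusted p = 1.04e-08) and Tagln by 2.19 ± 0.48 (adjusted p = 0.000156). Nes (nestin), the filament of neural progenitors, fell by 1.65 (adjusted p = 1.14e-05), and Fn1 was called lower without a double positive anchor. Of the called genes named here that had a double positive anchor, Nes was not called with library size alone (0.23, adjusted p = 0.471, where the median gene was at 1.38), and on shared anchors the calls of Cdh24 (adjusted p = 0.568), Tgfb1 (0.865) and Tcf4 (0.778) were lost. With a double positive anchor required, the lists' median log2 changes were -3.80 for the 3 cadherins tested, 1.21 for 3 catenins, 0.36 for 4 desmosome genes, 0.16 for 5 EMT-promoting factors, 0.60 for 6 epithelial factors, -0.69 for 4 TGF-beta genes and 0.71 for 6 filament and matrix genes, beside 0.0011 over all genes of that kind.

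The genes whose pattern over the 17 libraries was most like that of Cdh1, by the mean absolute difference of log2(CPM + 1) among 13712 tested genes sharing no anchor with it, were Tada2a (0.702), Tob1 (0.742) and Lrig1 (0.744). For Cdh2 they were Cxxc4 (0.554), Tagln3 (0.56) and Ints9 (0.668). Cxxc4 held 172 bulk and 8 double positive read pairs and Tagln3 held 153 and 5, beside 162 and 12 for Cdh2.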

How the data were processed

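The authors mapped H3K27ac HiChIP reads to mm9 (HiC-Pro), then used hichipper for peaks and loops. The deposited values of the 17 libraries are raw counts, the read pairs between 2 anchors. Which libraries gave the peaks of each anchor set is not given in the sources used here. Overlapping anchors were joined into 216081 anchors and 1211657 loops, and 700 read pairs whose ends fell into a joined anchor were dropped. Sums were taken for every anchor and every protein-coding gene (GENCODE, NCBIM37). The test took features seen in 5 or more libraries with 20 or more read pairs in all and ran over all of them in edgeR 4.0.16 (TMM, quasi-likelihood, Benjamini-Hochberg) in R 4.3.3. CPM values use TMM-scaled library sizes. Each SE was derived from the test, as the absolute log2 change divided by the square root of the quasi-likelihood F statistic. Python 3.11.15, numpy 2.4.6, pandas 2.3.3 and matplotlib 3.10.9 did the rest. On simulated data with 200 features changed 8-fold, 83.0% of genes, 61.0% of loops and 57.5% of anchors were recovered, with false shares among the calls of 3.49%, 2.4% and 3.36%. In the data far more genes were called, 2737 higher and 5604 lower of 13712. Whether these false shares hold with so many changes, or with anchor sets that differ between the groups, was not tested.

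The genes and lists were chosen with earlier results of these data known. The text names the 10 genes, for each the loop with the most read pairs per group (ties: the longer) and each loop past the test, up to 2 called genes per list and direction by smallest p, the 3 genes most like Cdh1 and Cdh2, and markers. Other Cdh1, Cdh2, Vim, Grhl2 and Zeb1 loops were named after their values were seen. Sox1 was not matched in the annotation. A further promoter sequence is not reported here. Alternatives were DESeq2 1.42.0 size factors, library size alone, at least 50 read pairs, no filter, TSS windows of 2.5 and 10 kb, shared anchors, spans of at least 20 kb, thinned libraries, all loops without the distal parts of chromosomes 1 and 2 and the start of chromosome 11, the replicate block, and each library left out (for loops and anchors, each double positive library). Every pair of libraries within a group differed by more than sampling noise (chi-square test over genes). Intervals and spread cover these libraries only, and PCR reads without molecular identifiers are no independent molecules.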

Additional observations from a re-analysis of the deposited data

How the results depend on the processing

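Library size alone turned the direction of Cdh1 (log2 change 1.18), Vim (0.47), Zeb1 (0.27), Grhl2 (0.71), the Vim loop with Trdmt1 (1.92) and the Zeb2 loop (0.83). Each moved about as far as the median gene or loop. Relative to it these were at -0.21, -0.91, -1.11, -0.67, -1.07 and -2.16, beside -0.21, -0.96, -1.02, -0.59, -1.02 and -2.17 with TMM, so none turned. Cdh3 and Snai1, with no double positive read pair, moved less than the median gene. Library size alone gave 1 of the 8 genes tested higher and 4 lower. It gave 2 of their 3 tested loops higher and 0 lower, and 1 of 13 promoter anchors higher and 10 lower. Over all features it gave 7976 genes higher and 3311 lower, 4129 loops higher and 740 lower, and 9879 anchors higher and 30159 lower. Shared anchors leave out features without double positive read pairs by construction. They turned Cdh1 (2.04, with 2 bulk read pairs kept) and the Vim loop with Trdmt1 (0.027). On shared anchors 4 of the 10 genes could be tested, with 1 higher and 2 lower. Of their 3 tested loops 1 was higher and 0 lower, and of 5 promoter anchors 1 was higher and 3 lower. Over all features 2110 of 9749 genes were higher and 1071 lower, and 2493 of 4789 loops were higher and 552 lower. Of 12510 anchors 4071 were higher and 1897 lower. Spans of at least 20 kb gave 0.20 for the Vim loop with Trdmt1. They gave 0 of the 2 tested loops of these genes lower and 413 of 2816 loops lower. With at least 50 read pairs none of these loops could be tested, and all 6 promoter anchors tested were lower. Of all features 3356 of 9971 genes and 8787 of 16385 anchors were lower, and of 850 loops 197 were lower and 334 higher. Without a filter 9596 of 19199 genes were lower. Thinned libraries gave 2561 of 10443 genes and 7633 of 17190 anchors lower, and of 1676 loops 120 lower and 1104 higher. Of the 7 promoter anchors of these genes tested, 1 was higher and 6 lower, and the 1 loop tested was higher. The cause of these moves was not tested beyond the smaller or larger sets of features.

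The loop called lower, that of Zeb2, was also lost with DESeq2 (0 lower) and without the distal segments (0 lower), and leaving out each double positive library gave 0 to 1 lower loops. Leaving out each of the 17 libraries gave 5 to 6 of the 10 genes lower and 0 higher, and leaving out each of the 5 double positive libraries gave 11 to 12 promoter anchors lower. Loops and anchors were not fitted without each bulk library.

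Bulk and double positive replicates 1 to 5 share numbers only: the correlations of their deviations from the group means over genes ran from -0.0138 to 0.0049, and 0 of 5 libraries correlated best with their own number. With the replicate number as a block over these 10 libraries, 6 of the 10 genes were again lower and 0 higher, 12 promoter anchors were lower, and 0 of their loops were lower (Zeb2 loop -0.98, adjusted p = 0.331), with 1100 of all loops higher. The same 10 libraries without the block also gave 0 lower loops.

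Most loops rest on 1 read pair, and only 3 loops of Vim and Zeb2 had enough read pairs for the test. Snai2 (13 read pairs) and Esrp1 (5) were not tested as genes.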
